A study of Homo sapiens with 33 samples.

Results

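The genes described here are the 10 members of the MYC, MAX and MXD network of transcription factors: MYC, MYCN, MYCL, MAX, MXD1, MXD3, MXD4, MXI1, MNT and MLX. They were taken by their symbols from the 58302 genes of a bulk RNA-seq table and followed over 6 cell lines, treatment with palbociclib and drug washout. The study asked how cells of malignant pleural mesothelioma, a cancer of the lining of the lung, respond to palbociclib, an inhibitor of the cyclin-dependent kinases CDK4 and CDK6. Cells received 0.1% DMSO, the solvent, or 1 µM palbociclib for 9 or 10 days. The sensitive mesothelioma lines were NCI-H2052 (H2052) with 2 experiments, and NCI-H2452 (H2452), NCI-H28 (H28) and MSTO-211H with 3 experiments each, and every experiment gave a DMSO and a palbociclib library. The resistant lines were the mesothelioma line MPP89, which carries a mutated RB1 gene, with 2 experiments, and MeT-5A, normal mesothelial cells immortalized with SV40, with 1 experiment and 1 untreated library. In each sensitive line a further library came from cells grown for 48 hours without drug after 10 days of palbociclib, from H2052 experiment 2 and from experiment 3 of the other lines. Each line is a single established culture, so differences between lines are differences between these cultures.

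MYC, MYCN and MYCL are transcription factors that bind the E-box, a short DNA motif, as dimers with MAX and activate genes of ribosome assembly, metabolism and cell division. The MXD proteins (MXD1, MXD3, MXD4 and MXI1, also called MXD2) and MNT compete for MAX and recruit SIN3 and histone deacetylases, which repress many of the same genes, and MXD4 and MXI1 are usually more abundant in resting or differentiating cells whereas MXD3 has been tied to S phase. MLX is a MAX-like partner that joins MNT, some MXD proteins and the glucose-responsive factors MondoA (MLXIP) and ChREBP (MLXIPL) to the same network.

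Levels are counts per 20000000 reads (CP20M), rounded up to whole numbers by the study. The 33 library totals lay between 20007662 and 20021400, so the totals do not show the depth. Whole numbers skipped among the low values gave an estimate of the depth in 22 libraries, from 12780000 to 19850000 reads with a median of 16280000. In the remaining 11 libraries too few values were skipped for an estimate. Numbers are skipped only where 1 read is worth more than 1 CP20M, so these libraries had close to 20000000 reads or more. The median therefore describes the shallower libraries only. At the lowest of the estimated depths 1 read was worth 1.57 CP20M and 3 reads 4.70 CP20M, and a level under that cannot be told from 0. Of the 12 mesothelial markers, 11 reached 100 CP20M in at least 1 library, and VIM had the highest value, 66452 CP20M. KRT5 did not, with at most 22 CP20M, and other markers were missing line by line. With DMSO, H28 had a mean of 4.33 CP20M of MSLN and 0.667 of CALB2, MSTO-211H 6 of KRT19 and 0 of PDPN, and MPP89 11 of KRT19. In the DMSO library of MeT-5A, WT1 and KRT19 were at 0 and CALB2 was at 404 CP20M. Of the markers of other cells, 2 of 5 leukocyte genes reached 100 CP20M, CD68 (up to 1844 CP20M) and CD14. Among endothelial genes 1 of 3 did so, PECAM1 at up to 120 CP20M, and among lung epithelial genes 0 of 4. In bulk samples fewer cells of a type and less RNA per cell cannot be told apart.

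Of the 10 network genes, 9 reached 100 CP20M in at least 1 of the 33 libraries and were tested, among 17803 such genes in all. MYCN did not: it had 62, 88 and 79 CP20M in H28 with DMSO, 62, 83 and 62 with palbociclib and 78 after washout, and 0 to 5 in every library of the other 5 lines. MYCN was thus measurable in H28 and at or near the limit of detection elsewhere.

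With DMSO alone, limma's F test over the 6 lines called 8 of the 9 tested genes different between lines at an FDR under 0.05, beside 95.6% of all genes tested, so a difference between lines was the rule for any gene. MYC varied the most in absolute terms. MSTO-211H had 10088, 20772 and 15698 CP20M, a mean of 15519 ± 5344 (SD, n = 3). H28 followed with 5040, 4853 and 3417, then H2052 with a mean of 3269 ± 1155 (SD, n = 2), MPP89 with 2775 and 2687, and H2452 with 1816, 1667 and 2633 CP20M. MeT-5A had 753 CP20M with DMSO and 1012 untreated. MSTO-211H lay above every other line without overlap and MeT-5A below, whereas the range of H2052 overlapped with those of H28, MPP89 and H2452. The mean of MSTO-211H was 20.6 times the level of MeT-5A.

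MYCL had a different order. It was highest in MeT-5A with 234 CP20M and H2052 with 91 and 175, lay between 17 and 54 in MSTO-211H, H28 and MPP89, and was at 5, 7 and 3 CP20M in H2452, at the edge of what the depth can show. MAX, the shared partner, was likewise highest in MSTO-211H at 1969 ± 113 CP20M (SD, n = 3) and lowest in H28 at 553 ± 34.6 (SD, n = 3), with no overlap between either line and its neighbour in the order.

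Among the antagonists, MXD3 was highest in MeT-5A at 4839 CP20M and lowest in MPP89 at 2099 and 2063, and H28 (3188 to 3720) overlapped with MSTO-211H (2528 to 3218) but not with H2052 or H2452. MXD4 was highest in H2452 at 2749 ± 995 CP20M (SD, n = 3). It was lowest in H28 at 851 ± 241 (SD, n = 3), which overlapped with MPP89. MXD1 stood apart in H28 with 257, 265 and 253 CP20M, below the 435 to 648 of all other DMSO libraries. MXI1 was the exception: its line means ran from 421 to 618 CP20M, every neighbour in the order overlapped with the next, and limma gave an FDR of 0.402. MNT was between 817 and 993 CP20M in H2052, MPP89 and MeT-5A and between 1149 and 1804 in the other lines. MLX ran from 640 CP20M in H2052 to 1157 in H2452, and at the low end H2052 overlapped with MPP89 and MeT-5A.

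**Figure D1:**
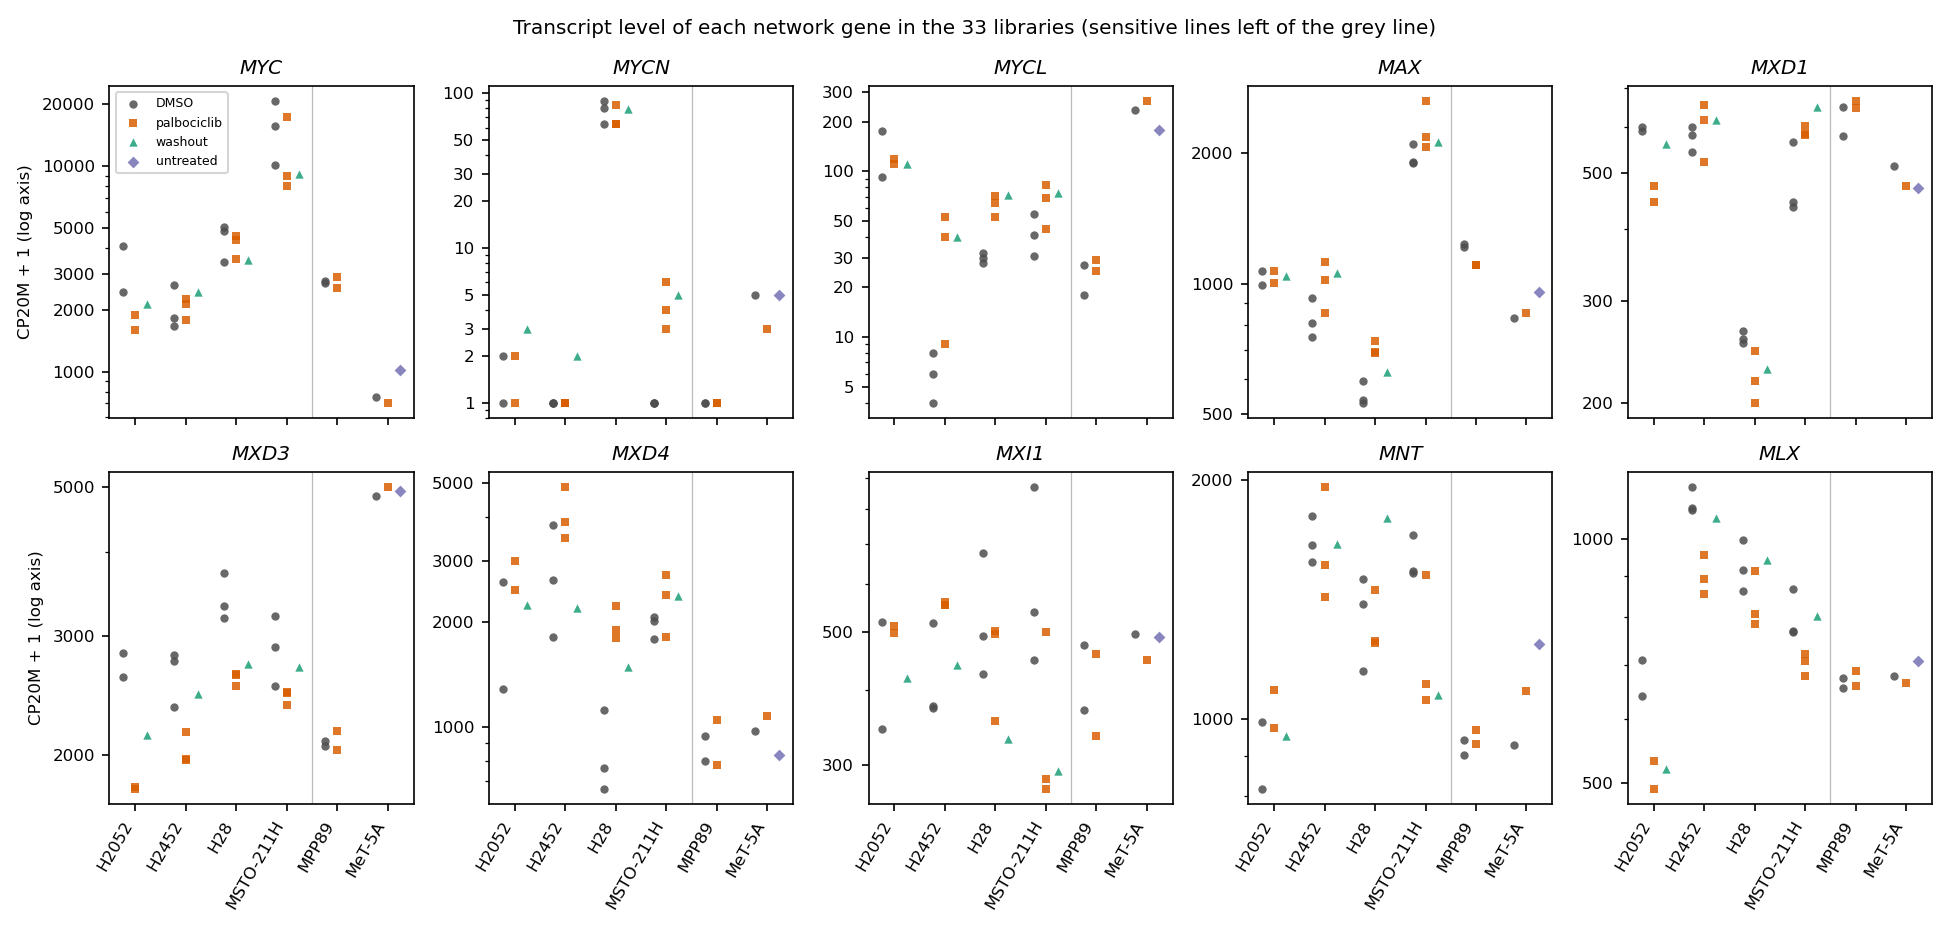
CP20M plus 1 of the 10 network genes on a log axis, with a point for each of the 33 libraries by line and treatment. MYC in MSTO-211H (7982 to 20772 CP20M) lies above all other lines, and MYCN exceeds 5 CP20M in H28 alone.

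Levels of different genes were compared per kilobase of exon. On this scale MYC was the most abundant MYC gene in every line, at 2540 CP20M per kb in MSTO-211H and 123 in MeT-5A with DMSO, against 8.32 and 47.1 for MYCL. With DMSO MXD3 led the antagonists in all 6 lines, from 439 CP20M per kb in MPP89 to 1020 in MeT-5A. With palbociclib MXD4 was above MXD3 in H2452 (592 against 428) and H2052 (398 against 376). With DMSO MXD4 was next in 5 lines, up to 400 CP20M per kb in H2452, whereas in H28 MNT came next with 155 and MXD4 had 124. The 5 antagonists together, divided by the MYC genes together, gave a mean ratio of 0.528 with DMSO in MSTO-211H, 1.52 in H28, 1.86 in MPP89, 2.07 in H2052 and 4.12 in H2452. In MeT-5A it was 8.34. The size of these ratios depends on MXD3, whose level is uncertain because it shares exon bases with its neighbours, as described next. Without MXD3 the ratio with DMSO was under 1 in MSTO-211H (0.204 to 0.370), H28 (0.416 to 0.641) and MPP89 (0.813 and 0.965), close to 1 in H2052 (1.03 and 0.958), and above 1 in H2452 (1.42 to 3.42) and MeT-5A (2.40). These ratios set transcripts side by side and say nothing of protein.

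**Figure D2:**
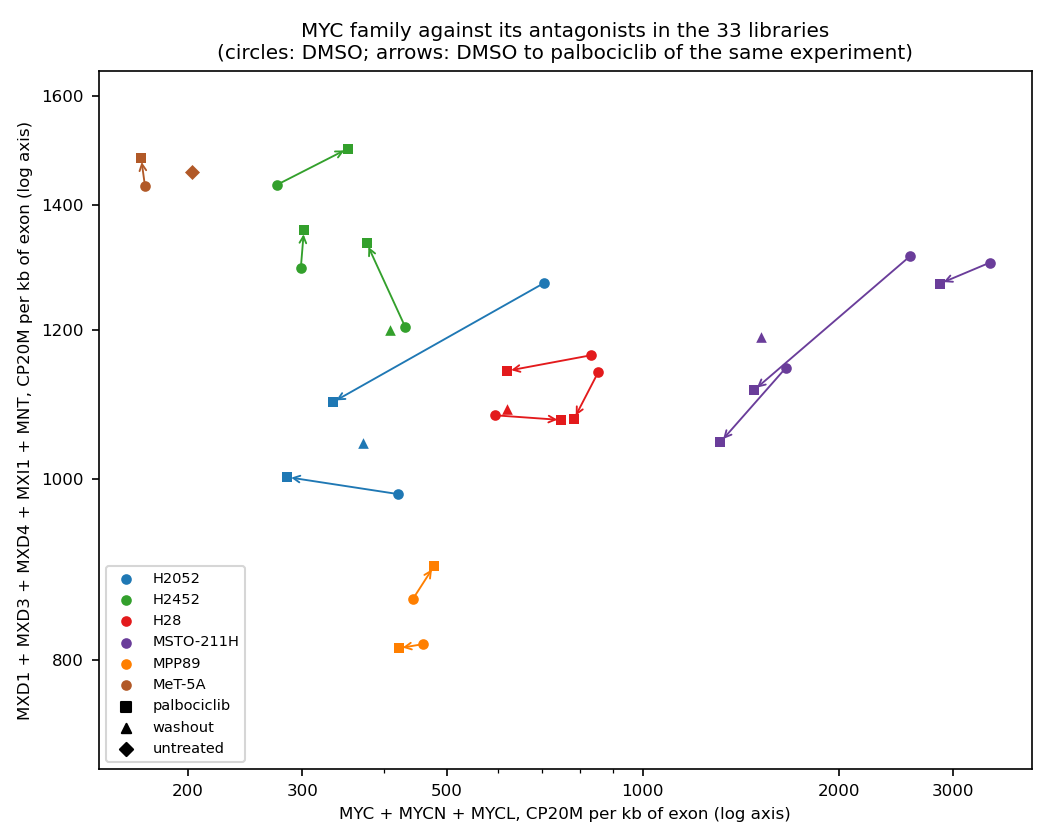
Summed CP20M per kb of exon of MYC, MYCN and MYCL (horizontal) against that of MXD1, MXD3, MXD4, MXI1 and MNT (vertical), both on log axes, in the 33 libraries, with an arrow from DMSO to palbociclib in each experiment. The lines spread mainly along the horizontal axis, from 169 in MeT-5A to 3411 in MSTO-211H.

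In the GENCODE 44 annotation of GRCh38 every member shares exon bases with at least 1 other gene of the table. MXD3 shares 24.2% of its exon bases with PRELID1 on the opposite strand and 19.5% with RAB24 on its own strand, MLX 18.2% with PSMC3IP, and MAX 13.1% with FNTB on the opposite strand. The libraries were made with a directional kit, but the strand setting used in counting is not given in the sources used here, so levels of these genes are uncertain to that extent.

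RefSeq promoters (GRCh38.p14) matched 9 of the 10 genes with 12 start sites, and MYC was not matched. The 250 bases before each start were searched on both strands for the E-box CACGTG, the motif that MYC, MXD, MNT and MLX dimers bind. It was found before 3 of the 12 starts, those of MXD4, MNT and MLX, and before 6.34% of all 35116 starts. The sequences below show these E-boxes, in capitals, and beside them the promoter of MXD3, the antagonist with the highest level per kb with DMSO, which holds no E-box in this window. Each is read 5′ to 3′ on the strand of its gene, and for MNT and MLX the 30 bases on either side of the E-box are shown.
MXD4, chr4:2262110-2262359, minus strand: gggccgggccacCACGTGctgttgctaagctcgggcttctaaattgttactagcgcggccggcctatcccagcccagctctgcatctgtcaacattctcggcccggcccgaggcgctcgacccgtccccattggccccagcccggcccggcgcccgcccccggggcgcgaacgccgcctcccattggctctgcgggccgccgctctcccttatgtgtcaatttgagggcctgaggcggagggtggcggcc
MXD3, chr5:177312753-177313002, minus strand: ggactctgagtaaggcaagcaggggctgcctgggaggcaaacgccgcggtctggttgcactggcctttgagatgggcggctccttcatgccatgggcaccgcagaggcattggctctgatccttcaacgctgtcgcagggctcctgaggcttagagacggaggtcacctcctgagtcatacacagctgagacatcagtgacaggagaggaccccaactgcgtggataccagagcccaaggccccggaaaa
MNT, chr17:2401218-2401283, minus strand: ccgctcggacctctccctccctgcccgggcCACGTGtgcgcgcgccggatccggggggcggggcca
MLX, chr17:42567020-42567085, plus strand: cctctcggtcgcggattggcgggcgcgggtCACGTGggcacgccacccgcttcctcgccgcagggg
The E-box starts 238 bases before the start site in MXD4, 193 in MNT and 50 in MLX. A match of these letters is a description of the sequence only. The 3 genes with an E-box had log2 fold changes with palbociclib in the sensitive lines of 0.67 (MXD4), -0.09 (MNT) and -0.24 (MLX).

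Over the 11 pairs of the sensitive lines, palbociclib was compared with DMSO with limma, with the experiment as a block. A gene was called when its fold change exceeded 1.5 in either direction and its FDR was under 0.05. All fold changes are differences of log2(CP20M + 10), so they understate the change of genes with low levels. In this fit the p-values measure the spread of the 11 pairs, within and between lines together. Experiments of the same line are not replicates of sensitive lines, so these p-values do not extend beyond these cultures. Of the 9 tested network genes, MXD4 and MYCL were called higher (2 of 9, beside 5.58% of all genes tested), and 0 of 9 were called lower (beside 9.37%). By the FDR alone with no minimum fold, 3 were higher (MXD4, MYCL and MAX, beside 14.6% of all genes) and 2 were lower (MXD3 and MLX, beside 33.7%).

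MXD4, a repressor partner of MAX, rose. In H28 it went from 763 to 1895, from 1123 to 2228 and from 666 to 1802 CP20M in experiments 1, 2 and 3. In H2452 it went from 2642 to 3864, from 3794 to 4874 and from 1812 to 3475. In H2052 it went from 1288 to 2466 and from 2602 to 3004, and in MSTO-211H from 2013 to 1812, from 2071 to 2727 and from 1791 to 2395. MXD4 was therefore higher with palbociclib in 10 of 11 pairs, with MSTO-211H experiment 1 as the exception, and H28 was the line in which DMSO and palbociclib libraries did not overlap. The log2 fold change was 0.67 ± 0.13 (SE), with a limma FDR of 0.000978. It was 0.62 in the 7 pairs treated for 9 days (FDR 0.0178) and 0.75 in the 4 pairs treated for 10 days, which missed the threshold (FDR 0.0557).

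MYCL, the least abundant tested member, also rose. In H28 it went from 31 to 70, from 29 to 52 and from 27 to 63 CP20M, and in MSTO-211H from 30 to 44, from 54 to 82 and from 40 to 68. In H2452 it went from 5 to 52, from 7 to 8 and from 3 to 39. H2052, which had the highest level of these lines, went from 91 to 110 and from 175 to 117 CP20M. MYCL was higher in 10 of 11 pairs, and only H2052 experiment 2 went down. It passed the filter on low values through libraries of H2052 and MeT-5A alone. In H2452, H28 and MSTO-211H it stayed under the filter level in every library, at up to 52, 71 and 82 CP20M. These lines would not have passed the filter on their own. Within H2052 its log2 fold change was -0.15 and was not called. Over the 11 pairs the log2 fold change was 0.72 ± 0.21 (SE), with a limma FDR of 0.0106. The call depended on settings: with a pseudocount of 50 the log2 fold change was 0.35, and with line means as units it was 0.65 with an FDR of 0.122. It was 0.71 in the 9-day pairs (FDR 0.0412) and 0.75 in the 10-day pairs, which missed the threshold (FDR 0.215).

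MXD3, the antagonist with the highest level per kb with DMSO, was lower in 11 of 11 pairs, by less than the fold minimum on average. It went from 2605 to 1790 and from 2831 to 1781 CP20M in H2052, and from 2760 to 2161, from 2359 to 1970 and from 2814 to 1962 in H2452. In H28 it went from 3720 to 2531, from 3188 to 2634 and from 3324 to 2629, and in MSTO-211H from 2528 to 2481, from 2891 to 2469 and from 3218 to 2370. DMSO and palbociclib libraries did not overlap in any of the 4 lines. The log2 fold change was -0.38 ± 0.06 (SE), with a limma FDR of 0.000209, and it was -0.32 in the 9-day pairs and -0.49 in the 10-day pairs. The genes that overlap MXD3 were lower as well, PRELID1 with a log2 fold change of -0.24 and RAB24 with -0.28, and their part in the value of MXD3 was not tested.

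MAX was higher in 10 of 11 pairs, from 529 to 692, from 593 to 688 and from 538 to 735 CP20M in H28 and from 1906 to 2069, from 2100 to 2642 and from 1902 to 2177 in MSTO-211H. Its log2 fold change was 0.23 ± 0.05 (SE, limma FDR 0.00418), under the fold minimum. MAX missed the FDR threshold with line means as units (FDR 0.180), in the 9-day pairs (0.21, FDR 0.0649) and in the 10-day pairs (0.25, FDR 0.161). MLX was lower in 11 of 11 pairs, though only from 914 to 912 CP20M in H28 experiment 2, and its log2 fold change was -0.24 ± 0.05 (SE, limma FDR 0.00253). MLX likewise missed it with line means as units (FDR 0.112), in the 9-day pairs (-0.22, FDR 0.0606) and in the 10-day pairs (-0.28, FDR 0.125). PSMC3IP, which overlaps MLX on the opposite strand, had a log2 fold change of -0.45.

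MYC itself was not called over the sensitive lines. Lower values with drug were seen in 9 of 11 pairs. The log2 fold change was -0.30 ± 0.12 (SE), with a limma FDR of 0.0574. It was -0.21 in the 9-day pairs (FDR 0.177) and -0.45 in the 10-day pairs (FDR 0.2315). The pairs ran from a fall of 4086 to 1892 CP20M in H2052 experiment 2 to gains from 1667 to 2143 in H2452 experiment 2 and from 3417 to 4367 in H28 experiment 3. MXD1, MXI1 and MNT had log2 fold changes of -0.03, -0.12 and -0.09, each with 5 pairs higher and 6 lower.

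The scaling of the libraries bears on the direction of small changes. Over all genes tested, the median was -0.11 on the log2 scale as deposited, 0.04 with median-of-ratios scaling and -0.01 with upper-quartile scaling, and the share of called genes that were higher was 37.3%, 63.0% and 54.7%. Relative to that median, MXD4 was at 0.78, MYCL at 0.84, MAX at 0.34, MXD3 at -0.27, MLX at -0.13 and MYC at -0.18. MXD4, MYCL and MAX stayed higher and MXD3, MLX and MYC lower under all 3 scalings, but the sizes moved. With median-of-ratios scaling MXD3 had -0.21 (FDR 0.00985), MYC -0.12 (FDR 0.414) and MAX 0.40 (FDR 4.62e-05). MLX also missed the FDR threshold with median-of-ratios scaling (log2 fold change -0.07, FDR 0.250). MXD1 and MNT changed sign under both other scalings and MXI1 under median-of-ratios scaling.

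**Figure D3:**
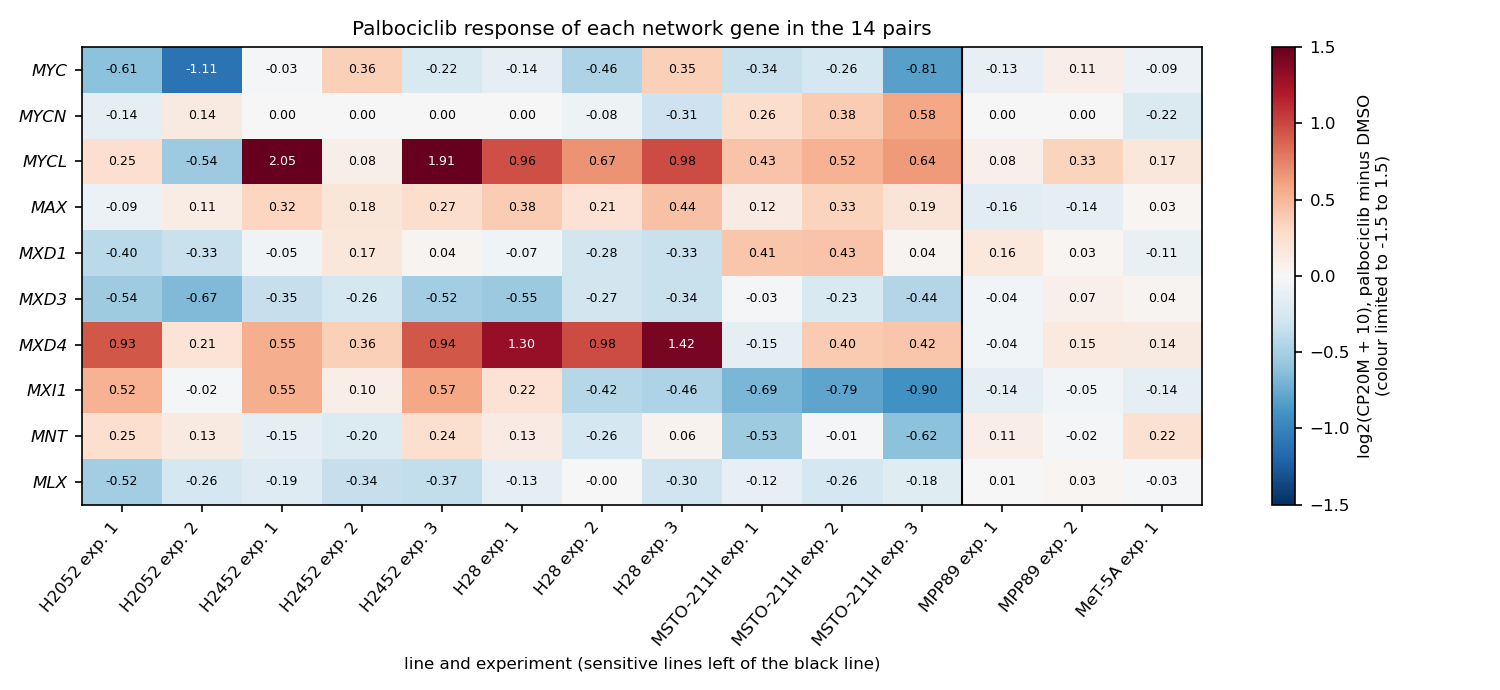
Difference in log2(CP20M + 10) between palbociclib and DMSO for the 10 network genes (vertical) in each of the 14 pairs (horizontal), printed in each cell and shown by colour. MXD3 is below 0 in all 11 pairs of the sensitive lines, and MXD4 is above 0 in 10 of them, up to 1.42 in H28 experiment 3.

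In the resistant lines no network gene was called by limma (0 of 9, beside 0% of all genes tested), and 0 of 9 had an unadjusted p under 0.05, against 1258 of the 17803 genes. MXD4 went from 802 to 778 and from 943 to 1047 CP20M in MPP89 and from 976 to 1074 in MeT-5A. MXD3 went from 2099 to 2035 and from 2063 to 2168 in MPP89 and from 4839 to 4990 in MeT-5A. The log2 fold changes of the 9 genes lay between -0.11 for MXI1 and 0.19 for MYCL. In MPP89 taken alone, limma called 0 of 9 (beside 0% of all genes), with 1 of 9 and 918 genes at an unadjusted p under 0.05. That member was MAX (unadjusted p 0.0272), with values from 1232 to 1101 and from 1217 to 1100 CP20M.

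The difference between sensitive and resistant responses was tested as an interaction, called by the FDR alone. Sensitivity belongs to a line, and repeat experiments of a line are not replicates of it, so with 4 and 2 lines this test does not extend beyond these cultures. By lines alone, the smallest p that 2 of 6 lines can reach is 0.0667. It was called for MXD3 (1 of 9, beside 9.37% of all genes), whose response was lower in the sensitive lines by -0.40 ± 0.12 on the log2 scale (SE, limma FDR 0.0442). This call was lost under both other scalings (FDR 0.271 and 0.130), under which MAX was called instead (difference 0.51, FDR 0.0102, and 0.44, FDR 0.0183, against 0.32 and 0.0802 as deposited). For MXD4 the difference was 0.59 ± 0.26 (SE, FDR 0.163) and for MYCL 0.53 ± 0.41 (SE, FDR 0.437), so their higher levels with drug were not shown to differ from the resistant lines. The single MeT-5A pair carries weight here: without it the number of genes called lower in the sensitive lines went from 1390 to 153, and MXD3 was not called. MXD3 kept its call in 5 of the 14 fits that left out an experiment.

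Responses differed among the 4 sensitive lines for MXI1, MXD4 and MXD1 by limma's F test (3 of 9, beside 37.1% of all genes, called by the FDR alone). Unequal responses were thus no more frequent among the network genes than among all genes. MXI1 differed in direction. In MSTO-211H it went from 447 to 273, from 869 to 499 and from 538 to 283 CP20M, whereas in H2452 it went from 375 to 553, from 516 to 552 and from 372 to 559. H28 was mixed, with 424 to 495, 675 to 501 and 490 to 354, as was H2052 with 344 to 497 and 519 to 510. The FDR for MXI1 was 0.00713. MXD4 (FDR 0.0244) gained the most in H28 and the least in MSTO-211H. MXD1, whose product is the founding antagonist of the family, went from 589 to 443 and from 598 to 474 CP20M in H2052 but from 435 to 583, from 443 to 600 and from 565 to 581 in MSTO-211H (FDR 0.0269). The median of all genes in H2052 was -0.24, and MXD1 there had -0.37 as deposited, -0.08 with median-of-ratios and -0.17 with upper-quartile scaling. MXD1 lost its call without either H2052 experiment or without MSTO-211H experiment 1 or 2, and MXD4 without H28 experiment 1 or 3 or with no filter on low values. Without the block for the experiment none of the 3 was called, with FDRs of 0.0906 for MXI1, 0.223 for MXD4 and 0.0505 for MXD1.

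Within single lines, limma called MYC and MXD3 lower in H2052 (2 of 9, beside 17.7% of all genes in either direction). MYC went from a mean of 3269 ± 1155 to 1746 ± 206 CP20M there (SD, n = 2), a log2 fold change of -0.86 ± 0.16 (SE, FDR 0.0490), and MXD3 had a log2 fold change of -0.60 ± 0.08 (SE, FDR 0.0398). H2052 had only 2 experiments. Both calls were lost under median-of-ratios scaling (MYC -0.57, FDR 0.0937, and MXD3 -0.31, FDR 0.0891) and upper-quartile scaling (-0.66, FDR 0.0783, and -0.40, FDR 0.0649). Both were also lost with a pseudocount of 1, no filter or no trend, and MYC without the block as well. In H2452 MXD4 was called higher with 0.61 ± 0.13 (SE, FDR 0.0374; 1 of 9, beside 16.8%). In H28 MXD4 was called with 1.24 ± 0.11 (SE, FDR 0.0266) and MYCL with 0.87 ± 0.13 (SE, FDR 0.0306; 2 of 9, beside 13.2%). In MSTO-211H MXI1 was called lower with -0.79 ± 0.11 (SE, FDR 0.0355; 1 of 9, beside 13.8%). With any experiment of H28 or MSTO-211H left out, 0 of all 17803 genes were called in that line, so these fits do not bear on single genes. MYCL in H28 had 0.50 with a pseudocount of 50, under the fold minimum, and its call was also lost with no filter on low values. It stayed under the filter level in every H28 library, so a filter within that fit drops it. Over all alternatives the log2 fold change stayed between 1.14 and 1.36 for MXD4 in H28 and between -0.85 and -0.67 for MXI1 in MSTO-211H. MXD4 in H2452 was not called with any experiment of that line left out, and its log2 fold change lay between 0.45 and 0.80 over all alternatives. The calls of MXD4 in H2452 and MXI1 in MSTO-211H were also lost without the block (FDR 0.188 and 0.150). MYC in MSTO-211H was lower in 3 of 3 pairs, with -0.47 ± 0.16 (SE) and an FDR of 0.111, and was not called.

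Washout asked which changes went back once the drug was removed for 48 hours, with 1 library per line in 4 lines. Against palbociclib limma called 0 of 9 network genes (beside 1.4% of all genes), with 1 of 9 and 2322 genes at an unadjusted p under 0.05. MXD3 was higher after washout than with palbociclib in 4 of 4 lines, at 2141 CP20M after 1781 in H2052, 2460 after 1962 in H2452, 2728 after 2629 in H28 and 2702 after 2370 in MSTO-211H (log2 fold change 0.21 ± 0.08 SE, FDR 0.294). The median of all genes in this comparison was 0.09, and under the other scalings MXD3 had 0.09 (FDR 0.731) and 0.12 (FDR 0.590). MXD4 was lower in 4 of 4 lines, at 2237 after 3004, 2196 after 3475, 1488 after 1802 and 2381 after 2395 CP20M (-0.34 ± 0.20 SE, FDR 0.535). MAX was lower in 4 of 4 lines too. MYC and MYCL had log2 fold changes of 0.00 and 0.04.

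Against DMSO from the same experiments, 0 of 9 were called after washout (beside 5.76% of all genes), with 1 of 9 and 5265 of the 17803 genes at an unadjusted p under 0.05. By the FDR alone MXD3 was still lower (1 of 9), with a log2 fold change of -0.28 ± 0.08 (SE, limma FDR 0.0479). Of all 17803 genes, 1322 were lower and 762 higher by the FDR alone, which is 11.7% in either direction. MXD3 missed the threshold under both other scalings (FDR 0.124 and 0.0784). MXD4 in H28 was at 1488 CP20M after washout against 666 with DMSO and 1802 with palbociclib. MYC in MSTO-211H was at 9171 against 15698 and 8952, and in H2052 at 2130 against 4086 and 1892, close to the level with drug in these lines. In H28 MYC was at 3514 against 3417 with DMSO and 4367 with palbociclib, close to DMSO, and in H2452 at 2448 against 2633 and 2252, in between. MYC lay on the DMSO side of its palbociclib level in 4 of 4 lines as deposited, in MSTO-211H by 0.03 on the log2 scale, which is less than the median of all genes (0.09). The H28 value comes from experiment 3, the only H28 pair in which MYC was higher with drug (1 of 3). Over the 4 lines MYC against palbociclib was 0.00 as deposited and -0.12 and -0.08 under the other scalings. MXI1 in MSTO-211H was at 292 against 538 and 283. Over the 4 lines the washout values of MYC, MYCL and MXD4 were -0.44 ± 0.20, 0.79 ± 0.36 and 0.40 ± 0.20 (SE) on the log2 scale against DMSO, each with an FDR above the threshold (0.177, 0.176 and 0.211). Both washout comparisons use the same washout libraries and are not independent. The change with drug and the change after washout share the palbociclib library of each line. A deviation of that library alone would move a gene back toward DMSO, so counts of lines for MYC, MXD3, MXD4 and MAX are descriptions.

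**Figure D4:**
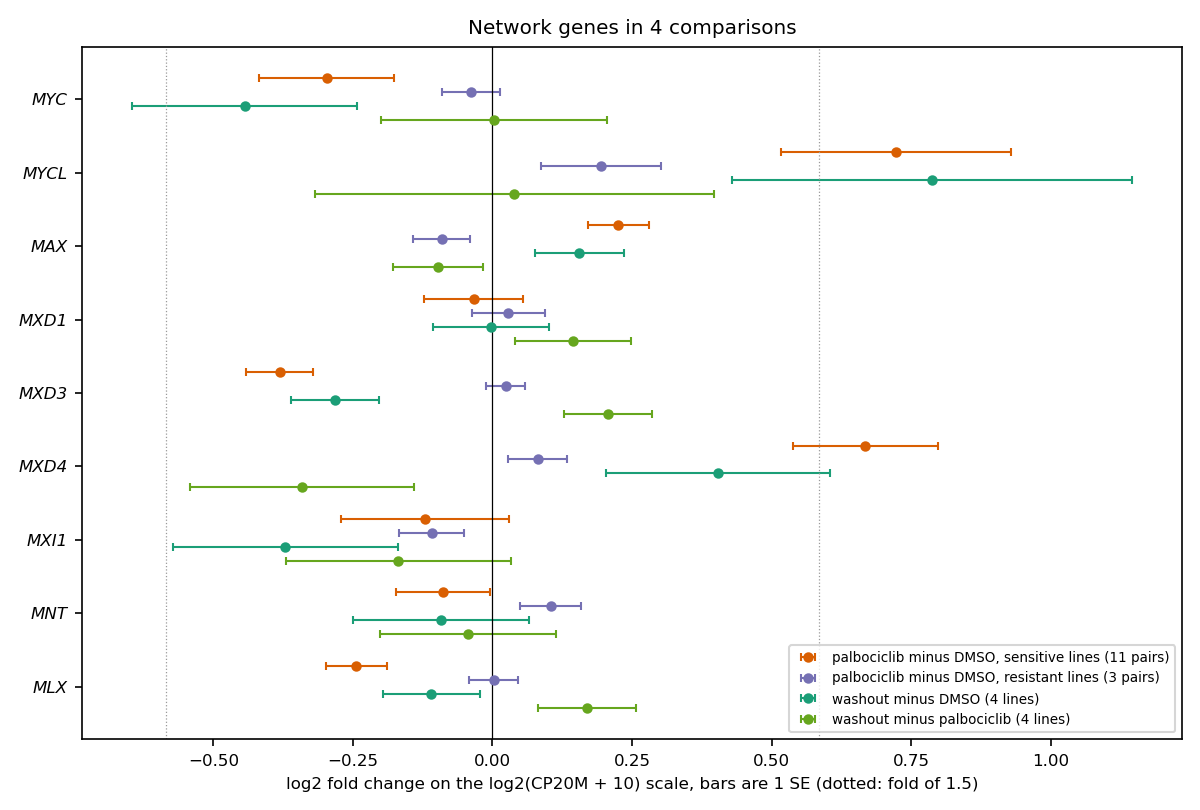
Log2 fold change with 1 SE of the 9 tested network genes in 4 comparisons: palbociclib against DMSO in sensitive and in resistant lines, and washout against DMSO and against palbociclib. MXD4 at 0.67 and MYCL at 0.72 in the sensitive lines pass the dotted line of a 1.5-fold change, and all values of the resistant lines lie between -0.11 and 0.19.

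Genes that work with the network were described by list, beside all genes tested in the sensitive lines, of which 5.58% were called higher and 9.37% lower and whose median log2 fold change was -0.11. Of 5 other E-box dimer partners 0 were called, and the median was -0.30. MLXIP (MondoA), with the highest CP20M of them, had a mean of 3124 CP20M with DMSO and 3643 with palbociclib in the sensitive lines and a log2 fold change of 0.22. Of 5 co-repressors used by the MXD proteins, 1 was called lower: HDAC2, a histone deacetylase, with means of 2830 and 1802 CP20M and a log2 fold change of -0.66 ± 0.06 (SE, limma FDR 5.15e-06). Of 9 co-activators and MIZ1, 1 was called lower (beside 9.37% of all genes): RUVBL2, a helicase subunit of chromatin complexes, with -0.59 (FDR 0.000465). HDAC2 and RUVBL2 were not called under the other scalings. Of 10 regulators of MYC protein stability 3 were called lower (beside 9.37% of all genes): CIP2A, an inhibitor of the phosphatase PP2A, with means of 736 and 265 CP20M, the mitotic kinase AURKA with 1378 and 543 and the deubiquitinase USP28 with 521 and 288. By the FDR alone, with scaling as deposited, 33.7% of all genes were lower and 14.6% higher. Of the co-activators and MIZ1 8 of 9 were lower and 0 higher, and of the co-repressors 4 of 5 were lower and 1 higher. Of the other dimer partners 3 of 5 were lower and 1 higher, and of the stability regulators 4 of 10 were lower and 1 higher.

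Of the 25 targets of MYC in the nucleolus and ribosome assembly 2 were called, both lower (beside 9.37% of all genes). By the FDR alone 20 of the 25 were lower (beside 33.7%) and 0 higher (beside 14.6%), with a median of -0.34. FBL, the methyltransferase of ribosomal RNA, went from a mean of 1914 to 749 CP20M, lower in 11 of 11 pairs (log2 fold change -1.25 ± 0.11 SE, limma FDR 2.14e-06). NPM1, a nucleolar chaperone, went from a mean of 18292 to 12086 CP20M (-0.60, FDR 0.000170) and was not called under the other scalings. Of the 18 metabolic and translation targets 1 was called higher (beside 5.58%) and 0 lower. It was HK2, a hexokinase, which was higher in 9 of 11 pairs with 0.64 ± 0.13 (SE, FDR 0.00157). By the FDR alone 2 of these 18 were higher (beside 14.6%) and 11 lower (beside 33.7%), and the median was -0.29. After washout FBL and NPM1 were still called lower than with DMSO, at -0.95 and -0.63, though NPM1 again not under the other scalings. Of the metabolic and translation list 1 was called higher after washout, HK2 at 0.66, and 3 were called lower, beside 500 higher and 526 lower of all 17803 genes. The 3 lower calls had log2 fold changes of -0.71, -0.60 and -0.59. Of all genes, 730 were called higher and 283 lower with median-of-ratios scaling, and 612 and 348 with upper-quartile scaling.

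Of the 10 cell cycle genes shared by MYC and E2F, 5 were called lower (beside 9.37% of all genes) and 1 higher (beside 5.58%). The median of the list was -0.68. By pair it was above 0 in MSTO-211H experiments 1 (0.10) and 2 (0.47). In the other pairs of the sensitive lines it lay between -1.57 and -0.22. PLK1, a mitotic kinase, was lowest with -2.66 (limma FDR 1.15e-05). CDC25A, a phosphatase that activates cyclin-dependent kinases, had -1.44 and E2F1 -1.02, each lower in 9 of 11 pairs. CCND2, which encodes cyclin D2, was higher in 11 of 11 pairs by 2.27 ± 0.38 (SE, FDR 0.000330). In the resistant lines the median of this list was 0.00.

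Of 6 genes that MYC is known to repress, NDRG1 was called higher with 1.19 (limma FDR 0.00203) and CDKN1B, which encodes the inhibitor p27, lower with -0.80 (FDR 2.85e-05). CDKN2B was at 0 in all 26 libraries of the sensitive lines and carries no information there. Both targets of MLX and MondoA were called higher: ARRDC4 rose from a mean of 611 to 1918 CP20M, in 11 of 11 pairs, for a log2 fold change of 1.69 ± 0.13 (SE, FDR 1.14e-06), and TXNIP from 5709 to 10799, in 10 of 11 pairs, with 0.81 ± 0.21 (SE, FDR 0.00563). ARRDC4 was also called in the interaction with the resistant lines (difference 1.69, FDR 0.00212) and after washout against DMSO (1.32), whereas TXNIP was called in neither (difference 0.83, FDR 0.207, and 0.34, FDR 0.549). As a reference for cell division, MKI67, TOP2A, CCNA2, BUB1 and CDK1 were all called lower with palbociclib, with a median of -2.75. All 5 were called higher after washout than with the drug (beside 1.4% of all genes), with a median of 2.69. With H2052 left out, 0 of all genes were called higher after washout than with the drug. The network genes moved far less than these 5 in either step.

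**Figure D5:**
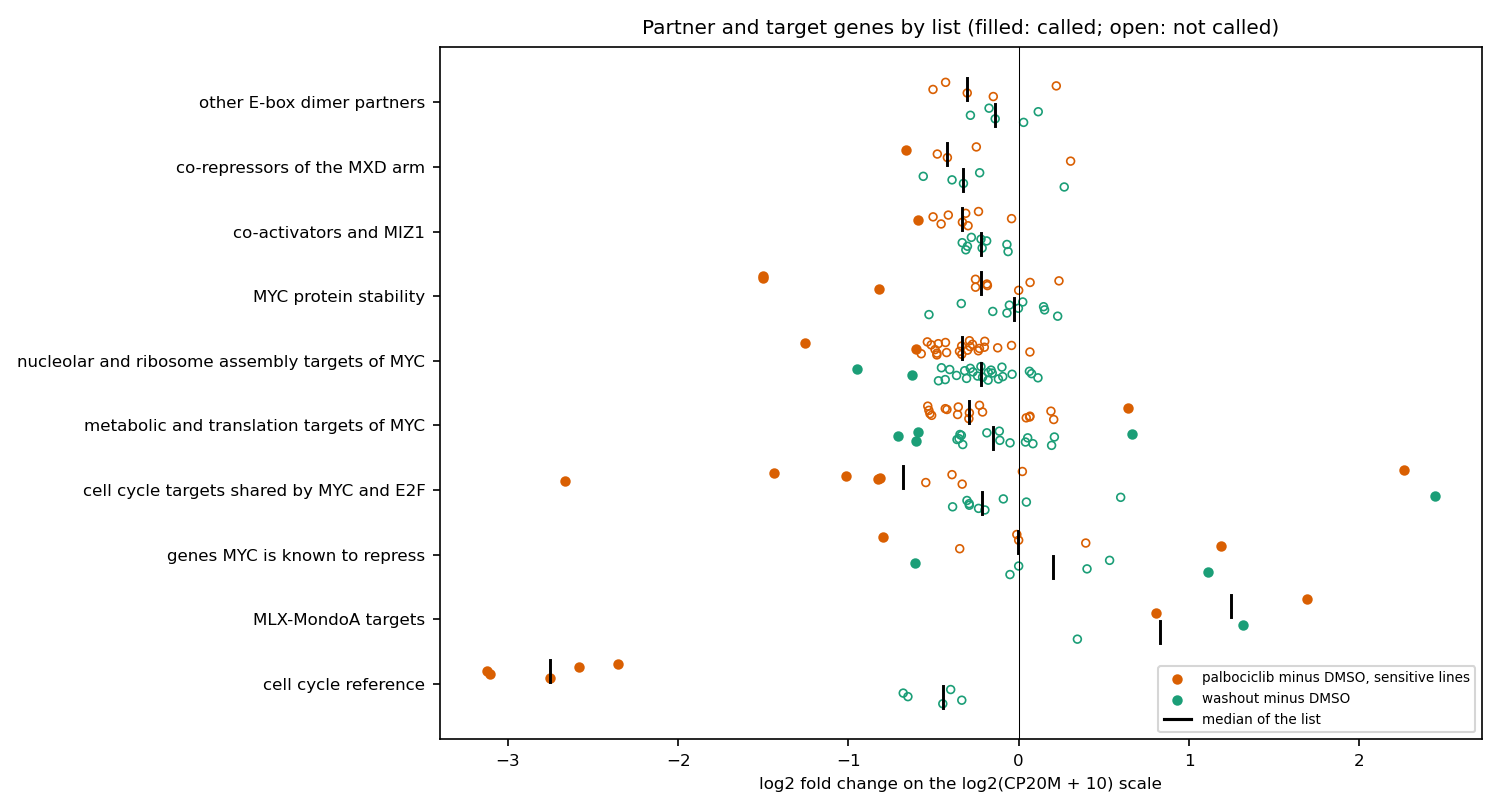
Log2 fold change of each gene of the 10 lists (points) and the median of the list (bars), for palbociclib against DMSO in the sensitive lines and for washout against DMSO. The nucleolar list lies mostly below 0 in both, with medians of -0.34 and -0.22, and the cell cycle reference moves from -2.75 to -0.45.

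The E-box was also counted in the promoters of the lists, as a description. It was found before 9 of 23 starts of the metabolic and translation targets (39.1%), 4 of 8 of the shared cell cycle targets and 2 of 26 of the nucleolar targets (7.69%), against 6.34% of all starts. The counts were 2 of 11 for the co-activators and MIZ1, 2 of 14 for the stability regulators and 1 of 3 for the MLX and MondoA targets. They were 0 of 8 for the other dimer partners, 0 of 7 for the co-repressors, 0 of 8 for the genes MYC represses and 0 of 6 for the cell cycle reference. ARRDC4 has an E-box 210 bases before its start, and neither of the 2 TXNIP starts has this motif within 250 bases. Only the exact letters CACGTG were searched, so the absence of a match does not show that a gene lacks a binding site.

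The genes most like each member were found by Pearson's r over the 33 libraries after the mean of each line was taken out, as a description without a test. The libraries share lines, experiments and depth. MXD4 was closest to MIR4800 (r = 0.94), a microRNA gene inside MXD4 on the same strand, then to RSPH3 (0.91) and UBE2H (0.86). MNT was closest to AC006435.1 (0.92), a transcript that overlaps it on the opposite strand, then FUZ (0.76) and SEMA3B (0.73). Reads of these overlapping pairs may not have been told apart. MXD3 was closest to ALYREF (0.94), MRPS34 (0.93) and BANF1 (0.93), and MYC to UHRF1BP1 (0.86), AP001160.1 (0.84) and YARS (0.82). PYGL, a glycogen phosphorylase, was among the 3 closest to both MYCL (0.82, after DUSP15 at 0.88 and AC015656.1 at 0.82) and MAX (0.85, with AL358334.3 at 0.85 and FYCO1 at 0.82). MXI1 was closest to EBLN3P (0.89), CAMLG (0.88) and CIR1 (0.87), MLX to CPSF4 (0.86), AC008686.1 (0.84) and RBM15 (0.84), and MXD1 to POLR2F (0.76), ZNF263 (0.74) and AL031587.6 (0.74).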

How the data were processed

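Bulk RNA-seq libraries came from 6 cell lines. Per the submitters' processing notes, reads were trimmed with Trimmomatic 0.36, mapped to GRCh38 with STAR 2.5.3 and counted per gene of Ensembl 90 with HTSeq 0.9.1. The deposited values are a score, the CP20M of each gene in each library, which the authors scaled to the library size and rounded up to whole numbers. The authors tested with DESeq2, a count model. Because the values used here are scaled and rounded up, another model was chosen. Here limma 3.58.1 (R 4.3.3; lmFit and eBayes with trend) was run on log2(CP20M + 10) over the 17803 genes that reached 100 CP20M in any of the 33 libraries, with Benjamini-Hochberg adjustment over all of them and two-sided p-values. The experiment was the block, since each line's DMSO and palbociclib libraries carry the same experiment number. In 13 experiments of lines with at least 2, deviations of the same number correlated with r from 0.18 to 0.78. In H2052 (0.34) and MPP89 (0.78), with 2 experiments each, both experiments have the same r by construction. MeT-5A has 1 pair, assumed to vary like the others. No replicate libraries were identical, with at most 4.33% of tested genes equal. The members and lists were chosen with earlier results of these data known. Named are all 10 members, up to 4 called genes of each list with the largest log2 fold change over the sensitive lines (with none called, the most abundant gene), and the 3 genes most like each member. BUB1 is named as the last of its list of 5 after its values were seen, as are the genes that overlap members. Exon lengths are unions over GENCODE 44 transcripts. The fits were tested on simulated data. Alternatives were no block, pseudocounts of 1 and 50, other filters, scalings and units, no trend, single durations and leaving out each experiment, line or library.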

Additional observations from a re-analysis of the deposited data

Results flagged for a closer look

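The response of MXD3 to palbociclib differed between the sensitive and the resistant lines in limma's interaction test (FDR 0.0442; 1 of 9, beside 9.37% of all genes). It did not under median-of-ratios (FDR 0.271) or upper-quartile scaling (FDR 0.130), and the call was kept in 5 of the 14 fits that left out an experiment. MXD3 was lower in 11 of 11 pairs of the sensitive lines, and in the resistant lines it went from 2099 to 2035 and from 2063 to 2168 CP20M in MPP89 and from 4839 to 4990 in MeT-5A. Among the sensitive lines 3 of 9 tested network genes responded differently, beside 37.1% of all genes. Such differences were thus no more frequent among network genes than among all genes. The response of MXI1 differed among the 4 sensitive lines in limma's F test (FDR 0.00713; 0.0906 without the block), lower in 3 of 3 pairs of MSTO-211H and higher in 3 of 3 pairs of H2452. The response of MXD4 differed in the same test (FDR 0.0244; 0.223 without the block; lost in 4 of 19 alternatives), with a mean log2 difference of 1.24 in H28 and 0.22 in MSTO-211H. The response of MXD1 did so too (FDR 0.0269; 0.0505 without the block; lost in 5 of 19 alternatives), lower in 2 of 2 pairs of H2052 and higher in 3 of 3 pairs of MSTO-211H. Why these lines differ was not tested.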

How the results depend on the processing

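Counts are network genes called, then genes called higher and lower where they moved. Without the replicate block 0 network genes and 2612 genes differed among the sensitive lines, H2052 kept 1 network gene, H2452 0 (649 genes higher), MSTO-211H 0 and H28 679 genes higher, and washout gave 0 genes against palbociclib and 0 and 0 against DMSO, where dropping the block drops the line as well and leaves line differences in the residual. A pseudocount of 1 left 0 in H2052 (395 and 790 genes). A pseudocount of 50 left 1 over the sensitive lines (642 and 1045 genes) and 1 in H28, with 324 genes higher after washout than with DMSO. No filter on low values left 0 in the interaction (179 and 925 genes) and 0 in H2052 (83 and 201), 0 for H2452, 1 for H28, with 493 and 501 genes in MSTO-211H, 302 higher after washout than with DMSO and 26822 at baseline. A filter within the fit left 1 in H28 and gave 3 and 1 genes in MPP89. Median-of-ratios scaling gave 1646 and 965 genes over the sensitive lines, 1 network gene higher and 0 lower in the interaction (710 and 577), 0 in H2052 (1700 and 870), 2 in H2452 (1802 and 1177), 858 lower in MSTO-211H, 149 and 1 after washout against palbociclib and 283 lower against DMSO. Upper-quartile scaling gave 1 higher and 0 lower in the interaction (531 and 803), 0 in H2052 (1318 and 1021) and 348 lower after washout against DMSO. Without the trend there were 0 in the interaction, 0 in H2052 (0 and 0 genes) and 1 gene lower after washout than with palbociclib. Line means as units left 1 over the sensitive lines, MXD4 (482 genes higher). The 9-day pairs alone gave 656 genes higher and the 10-day pairs 0 network genes and 526. Leaving out an experiment or line gave these lowest and highest counts. Over the sensitive lines 2 and 2 network genes, with 866 and 1045 genes higher and 1561 and 1831 lower. In the interaction 0 and 1, with 21 (without MPP89 experiment 1) and 357 higher and 153 (without MeT-5A) and 1626 lower. Among the sensitive lines 2 and 4, with 4598 and 6897 genes. In H2452 0 and 1, with 0 and 554 higher and 0 and 1023 lower, and in H28 and MSTO-211H 0 network genes and 0 genes. After washout 0 and 104 genes were higher than with palbociclib, 81 (without MSTO-211H) and 345 higher than with DMSO and 123 and 414 lower. At baseline 8 and 8, with 16743 and 17051 genes. No call was reversed. The cause of these shifts was not tested.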

Other observations

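The untreated MeT-5A library entered no comparison. Its levels were 1012 CP20M for MYC, 178 for MYCL, 4 for MYCN and 957 for MAX, and 4921 for MXD3, 830 for MXD4, 469 for MXD1, 489 for MXI1, 1244 for MNT and 707 for MLX. The DMSO library of the same line had 753 CP20M for MYC, 234 for MYCL and 4839 for MXD3, so MXD3 was close to its DMSO level and MYC above it, with 1 library each. The summed antagonists divided by the summed MYC genes, per kb of exon, were higher with palbociclib than with DMSO in 9 of 11 pairs of the sensitive lines, with a median fold of 1.16 and a range from 0.787 to 1.82. With all 5 antagonists the mean ratio went from 2.07 to 3.41 in H2052 and from 0.528 to 0.664 in MSTO-211H. It went from 4.12 to 4.10 in H2452 and from 1.52 to 1.55 in H28. In the resistant lines it went from 1.86 to 1.90 in MPP89 and from 8.34 to 8.75 in MeT-5A. Without MXD3 the ratio was higher in 10 of 11 pairs, with a median fold of 1.60. MXD3 itself was lower in 11 of 11 of these pairs, so leaving it out takes a falling part from the sum. No test was made of these sums.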
